A study of Danio rerio with 4 samples.

Results

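Cholesterol synthesis and uptake was followed through 9 genes in RNA sequencing of the brain of wild-type zebrafish (Danio rerio). The genes were taken by symbol from the authors' table of 32520 genes: srebf2 and insig1, which control the pathway, hmgcs1, hmgcra, sqlea, lss, cyp51 and dhcr7, which code for its enzymes, and ldlra, which codes for a receptor that takes up lipoproteins. Symbols were the rule, and no measured value entered it. CPM below is a count scaled to a common library size, and a filter asked for an average of 1 CPM or more over the libraries. Of the 9 genes, 8 passed it and ldlra did not. The same filter left 16522 genes in all.

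The study, whose title speaks of adult fish, light sensitivity and memory, compared brains after chronic exposure to butylparaben, an ester used as a preservative. There were 4 libraries, each of wild-type brain: a control with 0.1% dimethyl sulfoxide, and butylparaben at a low dose of 0.01 mg/L, a middle dose of 0.1 mg/L and a high dose of 1.0 mg/L. Dimethyl sulfoxide is named in the control's treatment label and not in those of the exposed groups, and whether a library pools several fish is not given in the sources used here. Each group held 1 library, so no value has a replicate, conditions could not be tested against each other, and a difference below is a difference between libraries. The intervals given are exact 95% intervals and cover counting error only. In bulk tissue, fewer cells of a type and less RNA per cell cannot be told apart.

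Animal cells make cholesterol from acetyl-CoA through mevalonate, squalene and lanosterol, and they can also take it up in lipoproteins. The transcription factor SREBP2, made from srebf2, is held in the endoplasmic reticulum by SCAP and INSIG proteins while sterols are plentiful. When sterols run low it is cut and moves to the nucleus, where it turns on the genes of synthesis and uptake, insig1 included. In mammals the blood-brain barrier keeps lipoprotein cholesterol out, so the brain makes its own, in large part in glia and for myelin.

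The smallest library held 9750590 counts (high dose) and the largest 11099317 (control). Of 10 neuron markers and 12 rows of oligodendrocyte and myelin markers, none was at 0 in any library. The control library stood apart in 19 rows of egg coat and oocyte markers, which summed to 556 CPM in the control, 12.4 CPM at the low dose, 12 CPM at the middle dose and 9.13 CPM at the high dose. All 3 comparisons with the control share that library.

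The 9 genes held an almost fixed order of level in all 4 libraries. On the authors' TPM scale, which corrects for transcript length, insig1 was first in each library, at 24.5 TPM in the control, 16.4 TPM at the low dose, 23.4 TPM at the middle dose and 20.6 TPM at the high dose. Then came srebf2 with a mean over libraries of 16.5 TPM, cyp51 with 14.8 TPM and hmgcs1 with 9.61 TPM. Lower down stood dhcr7 with a mean of 3.90 TPM, hmgcra with 3.13 TPM, lss with 1.92 TPM, sqlea with 1.43 TPM and ldlra with 0.155 TPM. The ranges over the 4 libraries overlapped between insig1 and srebf2, srebf2 and cyp51, dhcr7 and hmgcra, and lss and sqlea, so over libraries these neighbours did not differ beyond their spread, although within each library insig1 stood above srebf2 and srebf2 above cyp51. The steps from cyp51 to hmgcs1, hmgcs1 to dhcr7, hmgcra to lss and sqlea to ldlra showed no overlap. The order changed at 2 places: dhcr7 stood above hmgcra in the control and at the high dose and below it at the low and middle doses, and sqlea stood above lss in the control only.

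**Figure D1:**
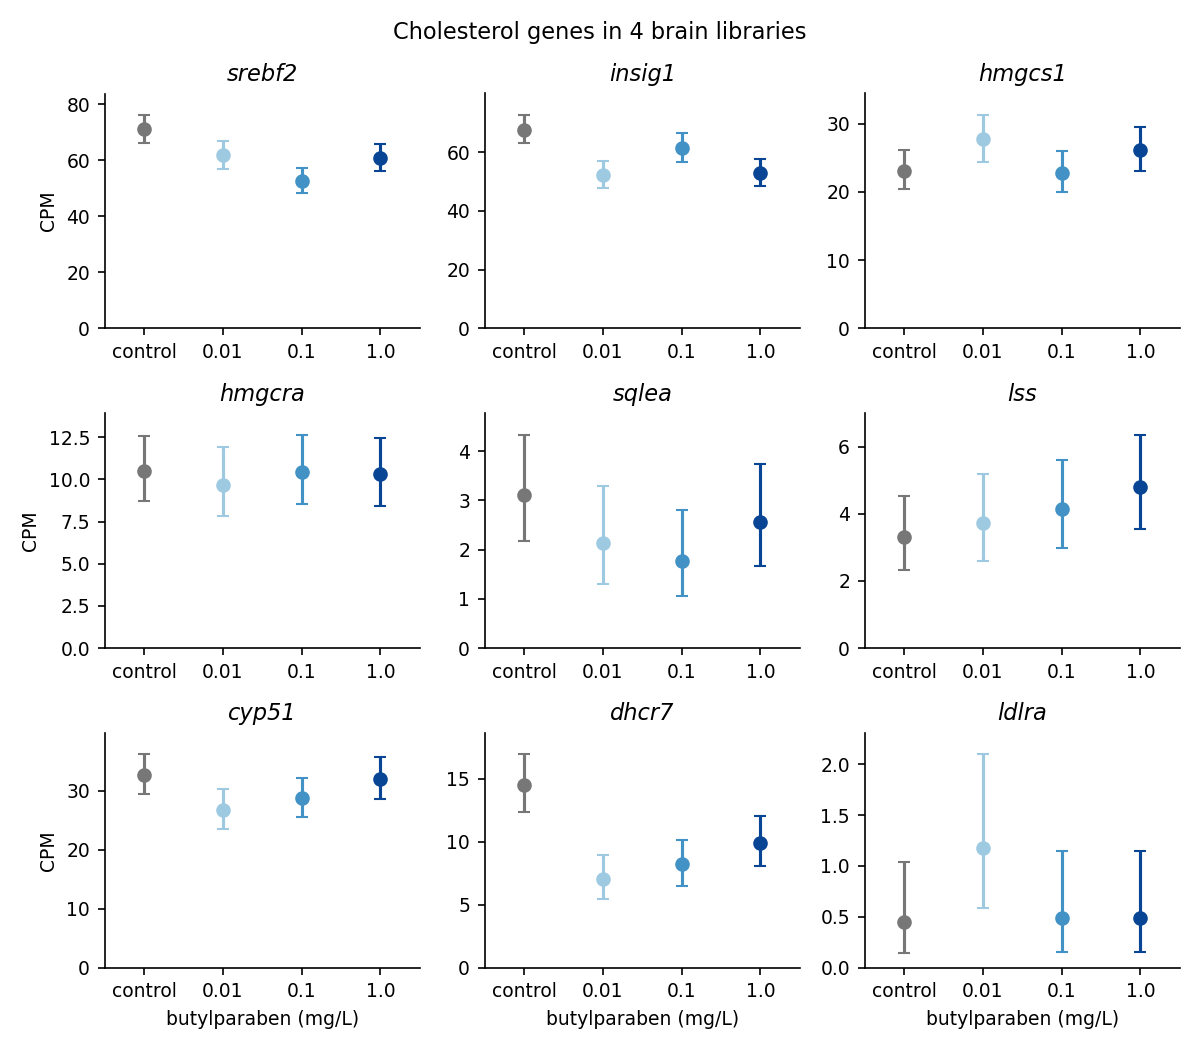
Level of each of the 9 genes in CPM (vertical axis, from 0) in the control library and at the low, middle and high doses of butylparaben (horizontal axis). Points are single libraries and bars are exact 95% Poisson intervals, which cover counting error only; dhcr7 had 7.03 CPM at the low dose, against 14.5 CPM in the control, with intervals that do not overlap.

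The clearest difference among the 9 genes was in dhcr7 (ENSDARG00000103226, chromosome 2, 28648888 to 28682476, minus strand, on GRCz11). This protein-coding gene makes 7-dehydrocholesterol reductase, the enzyme of a last step of cholesterol synthesis, whose loss in humans causes Smith-Lemli-Opitz syndrome. It had 163 counts (14.5 CPM) in the control, 66 counts (7.03 CPM) at the low dose, 83 counts (8.19 CPM) at the middle dose and 101 counts (9.92 CPM) at the high dose. The control was the highest library, and among the exposed libraries the level was greater at each higher dose. The ratios between neighbouring doses had intervals that hold 1, at 0.833 to 1.64 for middle over low and 0.896 to 1.64 for high over middle. At the low dose the CPM was 0.484 times that of the control (interval 0.358 to 0.648), which is 2.06-fold lower. At the middle dose it was 0.564 times (interval 0.428 to 0.739), and at the high dose 0.683 times (interval 0.527 to 0.881). The counting interval thus lay below 1 at every dose.

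A size rule was set beside these values: a log2 ratio of (CPM + 0.5) of at least 0.58 in size, which is 1.5-fold, with a counting interval that excludes 1. Under it dhcr7 was lower at the low and middle doses, and at the high dose its log2 ratio of -0.53 missed the size. With the authors' TPM that ratio was -0.21, so its size at the high dose depends on the scale. It was the only one of the 8 filtered genes past the rule at these doses, so 1 of 8 was lower at the low dose, where 5.61% of all 16522 genes were, and 1 of 8 at the middle dose, where 7.72% were. At the high dose 0 of 8 were lower, where 6.95% of all genes were. None was higher at any dose, where 5.27%, 6.17% and 7.26% of all genes were higher at the low, middle and high doses. With 8 genes, a single gene lower is near this background. Among the 5048 genes of a like level to dhcr7, with a mean of 5 to 20 CPM, 5.63% were lower at the low dose, 8.89% at the middle dose and 6.62% at the high dose. At 2-fold the dhcr7 log2 ratio at the low dose was -0.996, just under the size of 1 that the rule asks, and 1.43% of genes in that range of level were past it; it was past it when library totals took the place of TMM scaling. So no gene of the 8 was past 2-fold at any dose. Of all genes, 4.58% were past 2-fold in either direction at the low dose, 5.38% at the middle dose and 5.41% at the high dose.

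**Figure D2:**
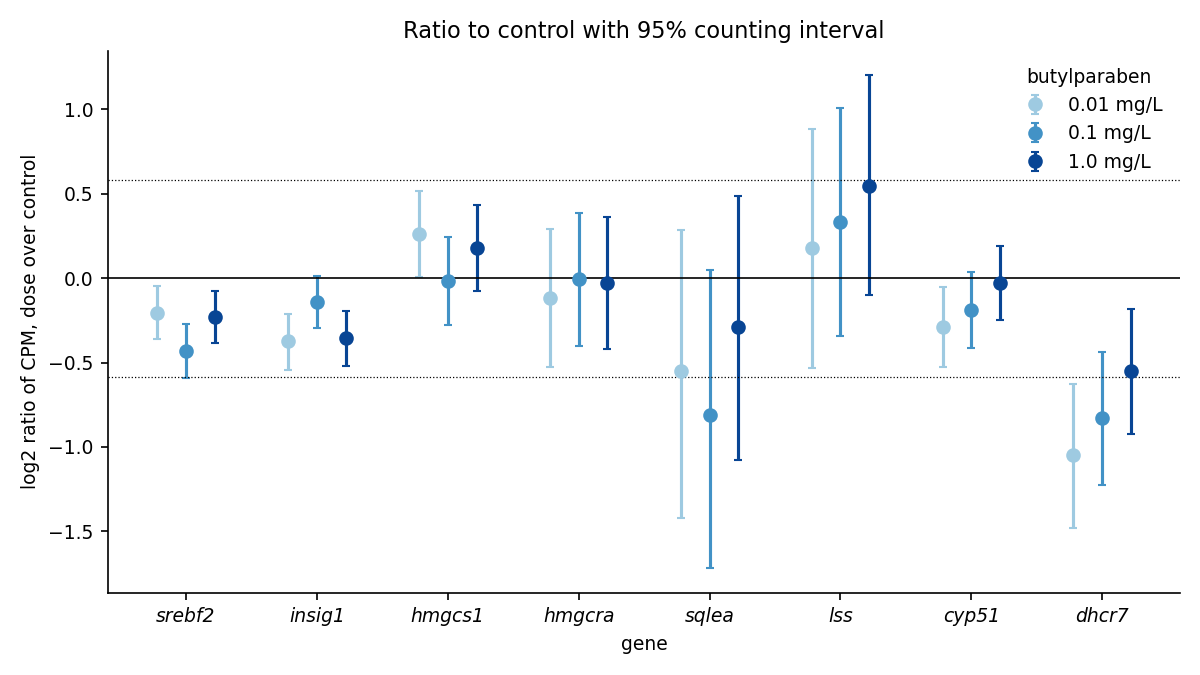
Ratio of CPM at each butylparaben dose over the control (vertical axis, log2) for the 8 genes that passed the filter (horizontal axis). Points are ratios of single libraries, bars are exact 95% counting intervals, and dotted lines mark 1.5-fold; dhcr7 lies lowest at the low dose, at 0.484 times the control.

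The 2 genes that govern the pathway were also lower than the control, by less than 1.5-fold. The master regulator gene srebf2 (ENSDARG00000063438, chromosome 3, 1107102 to 1130892, plus strand) had 71.2 CPM in the control, 61.8 CPM at the low dose, 52.7 CPM at the middle dose and 60.8 CPM at the high dose. The control was the highest library and the middle dose the lowest. Its ratio to the control was 0.868 at the low dose (interval 0.779 to 0.967), 0.741 at the middle dose (0.663 to 0.827) and 0.854 at the high dose (0.767 to 0.949). The gene insig1 (ENSDARG00000010658, chromosome 7, 41007773 to 41014773, minus strand), whose product retains SREBP2 and is itself a target of it in mammals, had 67.7 CPM in the control, 52.2 CPM at the low dose, 61.4 CPM at the middle dose and 52.9 CPM at the high dose. Here the lowest libraries were those at the low and high doses. The ratio of insig1 was 0.771 at the low dose (interval 0.687 to 0.865) and 0.782 at the high dose (0.699 to 0.874), while at the middle dose it was 0.907 with an interval that holds 1 (0.814 to 1.01). Thus in CPM, at the middle dose, where srebf2 was lowest, insig1 was closest to the control. On the authors' TPM scale srebf2 was instead lowest at the low dose, with 14.5 TPM against 14.9 TPM at the middle dose.

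The entry enzymes of the mevalonate part were near the control. The synthase gene hmgcs1 (ENSDARG00000103025, chromosome 10, 6010570 to 6034397, plus strand), which makes HMG-CoA, had 23.1 CPM in the control, 27.7 CPM at the low dose, 22.8 CPM at the middle dose and 26.1 CPM at the high dose. It was the only gene of the 8 with an interval above 1, at the low dose, with a ratio of 1.2 (interval 1.01 to 1.43). The reductase gene hmgcra (ENSDARG00000052734, chromosome 5, 50972485 to 50992775, minus strand) codes for the rate-limiting enzyme of the pathway, the target of statins. It had 10.5 CPM in the control, 9.69 CPM at the low dose, 10.5 CPM at the middle dose and 10.3 CPM at the high dose. These levels span a log2 difference of 0.11 from the lowest to the highest library, where the median gene spanned 0.47 and the lower quartile was 0.29. The interval of the hmgcra ratio at the high dose was 0.747 to 1.29, so a change within that interval was not detectable at this depth.

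From squalene to lanosterol the counts were low and the intervals wide. Squalene epoxidase a (sqlea, ENSDARG00000079946, chromosome 16, 43401005 to 43413293, plus strand), a second control point of the pathway, had 35 counts in the control, 20 at the low dose, 18 at the middle dose and 26 at the high dose. All 3 exposed libraries were below the control. The ratio was lowest at the middle dose, at 0.570 times the control, with an interval of 0.304 to 1.03 that holds 1. Lanosterol synthase (lss, ENSDARG00000061274, chromosome 9, 38481780 to 38500391, plus strand), which closes the sterol rings, had 3.30 CPM in the control, 3.73 CPM at the low dose, 4.15 CPM at the middle dose and 4.81 CPM at the high dose. It was lowest in the control and highest at the high dose, with a ratio of 1.46 at the high dose and an interval of 0.933 to 2.3.

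The demethylase gene cyp51 (ENSDARG00000042641, chromosome 19, 598657 to 617246, minus strand), which acts on lanosterol, had 32.7 CPM in the control, 26.7 CPM at the low dose, 28.7 CPM at the middle dose and 32.0 CPM at the high dose. At the low dose its ratio was 0.818 (interval 0.694 to 0.963), and at the high dose it was 0.979 (interval 0.841 to 1.14). Like dhcr7, it was lowest at the low dose and nearer to the control at each higher dose. For cyp51 too the intervals between neighbouring doses hold 1, at 0.904 to 1.28 for middle over low and 0.948 to 1.31 for high over middle. The counts of sqlea, lss, cyp51 and dhcr7, the described enzymes from squalene on, summed to 602 in the control, 372 at the low dose, 434 at the middle dose and 502 at the high dose. Most of these counts are those of cyp51 and dhcr7. The sums leave out other enzymes of that stretch, such as tm7sf2, lbr and hsd17b7, which are given below. The ratio of these sums in CPM was 0.739 at the low dose (interval 0.648 to 0.842), 0.799 at the middle dose (0.705 to 0.905) and 0.919 at the high dose (0.815 to 1.04). In the authors' TPM the same genes summed to 24.9 in the control and to 16.6, 21.2 and 25.4 at the rising doses. On that scale the high dose was thus not below the control.

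The RNA of ldlra (ENSDARG00000029476, chromosome 3, 19299309 to 19323689, plus strand), a gene of the low density lipoprotein receptor, was close to the limit of detection. It had 5 counts in the control, 11 at the low dose, 5 at the middle dose and 5 at the high dose. Only the library at the low dose held more than the others, with a ratio of 2.63 to the control and an interval of 0.843 to 9.66, so a difference was not detectable at this depth.

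Taken by count, 6 of the 8 filtered genes were below the control at the low dose, 7 at the middle dose and 6 at the high dose. These counts hold genes very near the control, and they depend on the scaling: with the authors' TPM they were 7, 5 and 4 at the rising doses, and with library totals 6, 6 and 4. The genes that changed side were lss at the low dose, hmgcra and hmgcs1 at the middle dose, and hmgcra and cyp51 at the high dose. The median log2 ratio of the 8 was -0.24 at the low dose, -0.16 at the middle dose and -0.13 at the high dose. The median of all 16522 genes was 0.00 at each dose. Quartiles of all these genes were -0.21 and 0.20 at the low dose, -0.25 and 0.22 at the middle dose and -0.24 and 0.25 at the high dose. The median of the 8 lay within them at the middle and high doses. Over all 9 genes, without the filter, the medians were -0.20, -0.14 and -0.03 at the rising doses. Intervals below 1 were found for 4 genes at the low dose (insig1, srebf2, cyp51 and dhcr7), against 14.6% of all genes. At the middle dose there were 2 (srebf2 and dhcr7), against 17.2%, and at the high dose there were 3 (insig1, srebf2 and dhcr7), against 18.9%. An interval above 1 was found for hmgcs1 at the low dose, against 15.0% of all genes, and for none at the middle and high doses, against 18.8% and 18.6%. The interval narrows as counts grow, so this count depends on level as well as on ratio.

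The exposed libraries were also compared with each other, which leaves aside the control with its egg coat counts. Of the 8 genes 0 were past the 1.5-fold rule in any pair of doses, where 4.35% of all genes were higher and 5.40% lower in the middle over the low dose, 5.39% higher and 5.03% lower in the high over the low dose, and 5.68% higher and 3.63% lower in the high over the middle dose. With 8 genes a count of 0 is near these shares. The widest log2 ratio was that of dhcr7 in the high over the low dose, at 0.47, which is 1.41 times with an interval of 1.02 to 1.95. For cyp51 that ratio was 1.2 (interval 1.01 to 1.42). These 2 of 8 genes had intervals that exclude 1 in that pair, against 29.5% of all genes. In the middle over the low dose 3 of 8 did, against 27.8% of all genes, with the interval above 1 for insig1 (1.04 to 1.33) and below 1 for srebf2 (0.757 to 0.961) and hmgcs1 (0.687 to 0.987). In the high over the middle dose 2 of 8 did, against 28.8%, with the interval above 1 for srebf2 (1.03 to 1.3) and below 1 for insig1 (0.766 to 0.969). These counts are near the background. In CPM, insig1 was thus higher and srebf2 lower at the middle dose than at either other dose, by less than 1.5-fold. The srebf2 part depends on the scaling, since in the authors' TPM srebf2 was lowest at the low dose.

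**Figure D3:**
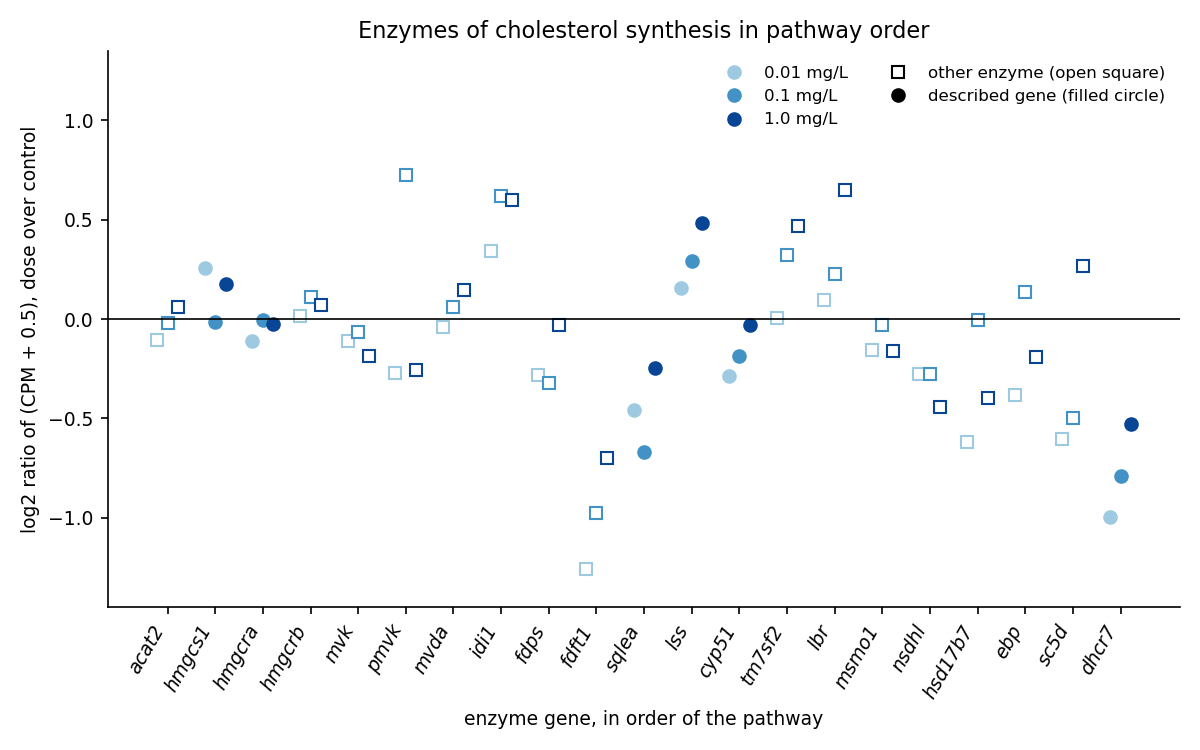
Log2 ratio of (CPM + 0.5) at each dose over the control (vertical axis) for enzyme genes in pathway order (horizontal axis), with filled circles for the 6 enzymes described above and open squares for the others. Points are single libraries without replicates. At the low dose fdft1, which passed the filter only through the control, and dhcr7 lie lowest. At the high dose idi1, tm7sf2 and lbr lie above 0.

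The other enzymes of the pathway went both ways. The list held 17 genes found in the table, of which 16 passed the filter. At the low dose 2 of 16 were lower by the 1.5-fold rule and 0 higher, at the middle dose 1 was lower and 2 higher, and at the high dose 0 were lower and 2 higher. Beside the shares of all genes given above, 5.61% lower and 5.27% higher at the low dose, 7.72% and 6.17% at the middle dose and 6.95% and 7.26% at the high dose, these are counts near the background. Their median log2 ratio was -0.13, -0.01 and -0.03 at the rising doses. The lowest was squalene synthase, fdft1, the step just before sqlea, with 25 counts in the control, 6 at the low dose, 9 at the middle dose and 12 at the high dose. All exposed libraries held fewer counts, and counts this low do not settle an order of the doses. With a mean of 1.23 CPM and 2.23 CPM in the control, fdft1 passed the filter only through the control, which favours ratios below 1. It is 1 of the 2 genes lower at the low dose and the 1 lower at the middle dose. Those counts are thus in part set by the filter. At the low dose fdft1 was at 0.287 times the control (interval 0.0963 to 0.717), past 2-fold, and at the middle dose at 0.399 times (interval 0.164 to 0.884). The 3-ketosteroid reductase gene hsd17b7 was lower at the low dose, with 4.47 CPM against 7.13 CPM in the control.

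On the higher side, the isomerase gene idi1 of the mevalonate part had 18.4 CPM in the control, 23.5 CPM at the low dose, 28.6 CPM at the middle dose and 28.2 CPM at the high dose. It was higher by the rule at the middle dose, at 1.55 times (interval 1.29 to 1.86), and at the high dose, at 1.53 times (interval 1.27 to 1.84). The phosphomevalonate kinase gene pmvk had 4.74 CPM at the middle dose, against 2.67 CPM in the control, and was not high at the other doses. The sterol C14 reductase gene lbr, which also codes for the lamin B receptor of the nuclear envelope, had 17.9 CPM at the high dose, against 11.2 CPM in the control. Its partner in that step, tm7sf2, had a log2 ratio of 0.47 at the high dose and did not pass the rule. Summed over 22 enzyme genes in CPM, the ratio to the control was 0.925 at the low dose (interval 0.876 to 0.975), 1.01 at the middle dose (0.958 to 1.06) and 1.07 at the high dose (1.02 to 1.12). In the authors' TPM these genes summed to 150 in the control and to 120, 158 and 173 at the rising doses. The size of the ratios thus depends on the scale, which the counting intervals do not cover.

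**Figure D4:**
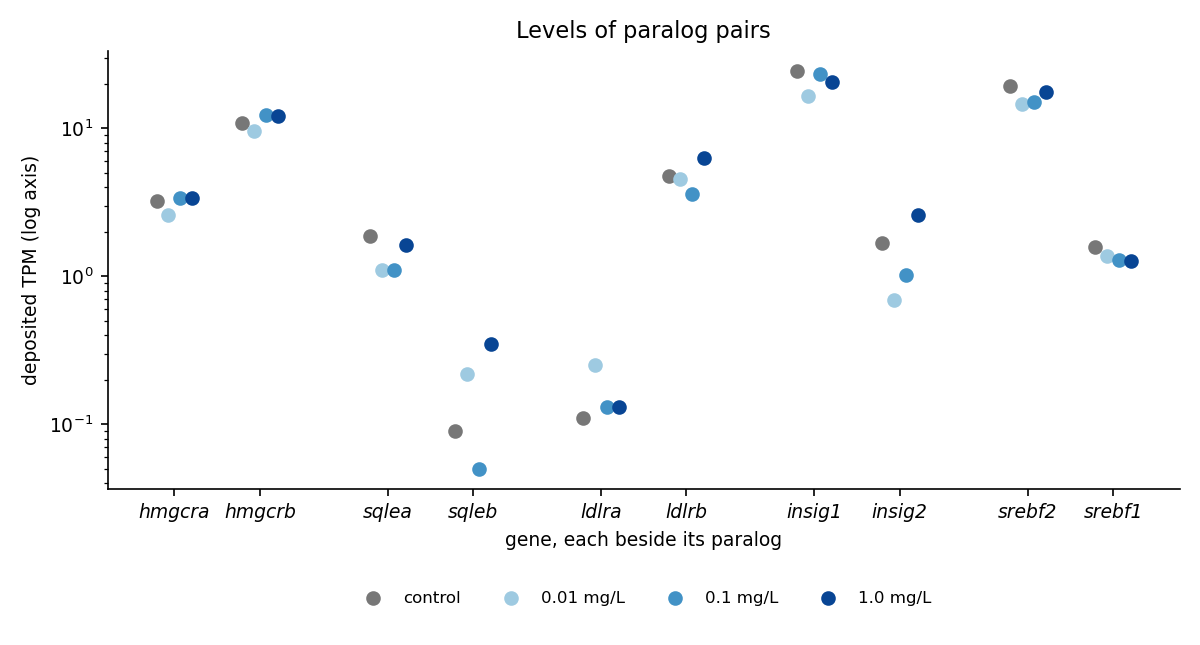
Level in the authors' TPM (vertical log axis) of hmgcra, sqlea, ldlra, insig1 and srebf2, each beside its paralog (horizontal axis). Each point is 1 library; the partners keep their order in every library, with hmgcrb above hmgcra and ldlrb above ldlra.

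Zebrafish keep related copies for 5 of the genes, and the copy that dominates differed from pair to pair. RSEM shares reads between similar transcripts, so values within a pair are estimates. For HMG-CoA reductase the b copy was the major one, with hmgcra at 22.8% of the TPM of the pair in the control, 21.3% at the low dose, 21.4% at the middle dose and 21.6% at the high dose. This split moved little. In CPM the ratio of hmgcrb to its control was 1.01 at the low dose (interval 0.862 to 1.18), 1.08 at the middle dose (0.930 to 1.26) and 1.05 at the high dose (0.902 to 1.23). The receptor ldlrb, with 4.75 TPM in the control against 0.110 TPM for ldlra, was likewise the major copy, and ldlra made up between 2.03% and 5.21% of the pair. At the middle dose ldlrb was at 0.663 times the control (interval 0.489 to 0.893), short of the rule.

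In the other pairs the described gene was the major copy. Squalene epoxidase came mostly from sqlea, and sqleb had 2 counts in the control, 5 at the low dose, 1 at the middle dose and 7 at the high dose. The sterol sensor insig1 made up 93.6% of the TPM of its pair with insig2 in the control, 96.0% at the low dose, 95.8% at the middle dose and 88.9% at the high dose. That lower share at the high dose goes with 20 counts of insig2, against 15 in the control, a ratio of 1.47 with an interval of 0.715 to 3.08. With a mean of 1.18 CPM and 1.96 CPM at the high dose, insig2 passed the filter only through that library, which favours a ratio above 1 there. The gene srebf2 made up between 91.4% and 93.3% of its pair with srebf1, a related factor best known for fatty acid synthesis.

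**Figure D5:**
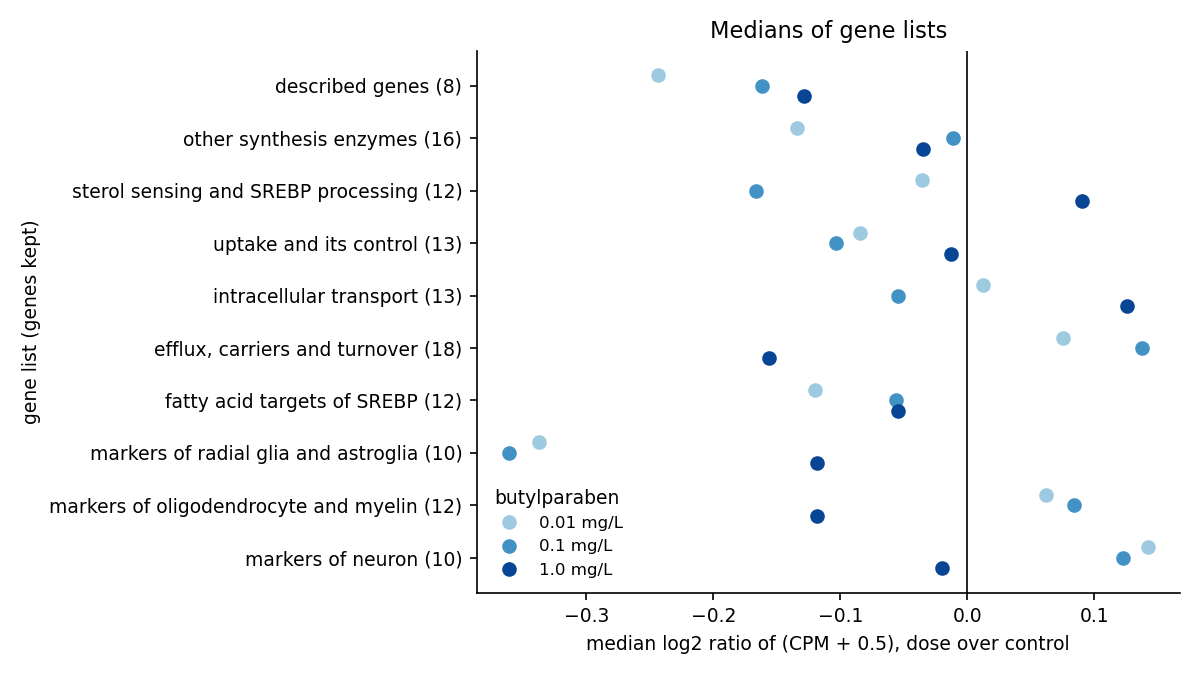
Median log2 ratio of (CPM + 0.5) at each dose over the control (horizontal axis) for the described genes, related gene lists and markers of cell types (vertical axis, with the number of genes that passed the filter). Each point is a median over genes of 1 library against the control; the described genes lie at -0.24 at the low dose and the radial glia and astroglia markers at -0.34.

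Around the pathway, the sterol sensing and SREBP processing genes had 0 of 12 past the 1.5-fold rule in either direction at every dose, with medians of -0.04, -0.17 and 0.09 at the rising doses. The 12 include insig2, which passed the filter only through the high dose. Over all 14 genes, without the filter, the median at the high dose was 0.04. In lists of 12 or 13 genes, counts of 0 or 1 past the rule are near those shares of all genes, here and for the lists that follow. This list holds scap, the escort of SREBP, with a ratio of 0.797 at the low dose (interval 0.476 to 1.32), and rnf145b, whose mammalian counterpart is a ubiquitin ligase for SCAP, with a ratio of 1.2 at the middle dose (interval 1.1 to 1.32). The fatty acid targets of SREBP also had 0 of 12 past it at every dose, with medians of -0.12, -0.06 and -0.05. There the fatty acid synthase gene fasn was at 0.818 times the control at the high dose (interval 0.761 to 0.878) and the desaturase gene fads2 at 1.22 times (interval 1.12 to 1.31). Of 13 uptake genes 1 was lower at the middle dose, ldlrap1a, an adaptor that internalises the receptor, with 2.76 CPM against 5.08 CPM in the control, and none was past the rule at the other doses. The gene mylipa, which codes for a ubiquitin ligase that degrades the receptor in mammals, had 50.2 CPM at the high dose against 70.6 CPM in the control, short of the rule.

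Of 13 genes of intracellular transport and storage, 1 was higher at the low dose, gramd1ba, a gene of sterol transfer from the plasma membrane, with 9.48 CPM against 5.70 CPM in the control. At the middle dose none was past the rule. At the high dose 2 of the 13 were higher by the rule and 1 lower, where 7.26% and 6.95% of all genes were. With 13 genes these counts are near the background. Of those higher, gramd1bb had 6.58 CPM against 3.65 CPM in the control, and the other fell outside the rule for naming genes. The 1 lower was soat2, which esterifies cholesterol, with 4.61 CPM against 8.55 CPM. The gene osbpl2a, with a ratio of 1.87, had an interval that holds 1 (0.899 to 4.03). The lysosomal carrier npc2 had 23.3 CPM at the low dose against 32.5 CPM in the control, a ratio of 0.718 (interval 0.604 to 0.851), short of the rule.

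Of 18 genes of efflux, carriers and turnover, 2 were higher by the 1.5-fold rule and 0 lower at the low dose. At the middle dose 1 was higher and 1 lower, and likewise at the high dose. Of all genes, 5.27% were higher and 5.61% lower at the low dose, 6.17% and 7.72% at the middle dose and 7.26% and 6.95% at the high dose. With 18 genes these counts are near the background. The list medians were 0.08, 0.14 and -0.16 at the rising doses. The cholesterol exporter abca1a had 83.7 CPM in the control, 88.0 CPM at the low dose, 130 CPM at the middle dose and 125 CPM at the high dose. The libraries at the middle and high doses were the high ones. Its ratio of 1.55 at the middle dose (interval 1.43 to 1.69) passed the rule, and that of 1.49 at the high dose (interval 1.37 to 1.62) lay just under it. The exporter gene abcg4b was higher at the high dose, with 39 counts against 11 in the control, past 2-fold. The sterol hydroxylase gene cyp27a1.2 was lower at the middle dose, with 16 counts against 40 in the control, and at the high dose, with 17 counts against 40. The apolipoprotein genes apoea and apoa1a were high in the library at the low dose alone. Both passed the filter only through that library, so their high ratios there say nothing about the list as a whole. For apoea the counts were 1 in the control, 51 at the low dose, 0 at the middle dose and 1 at the high dose, a ratio of 61.0 at the low dose with a counting interval of 10.5 to 2456. For apoa1a they were 12 in the control, 66 at the low dose, 3 at the middle dose and 3 at the high dose. The 7 liver markers that passed the filter all exceeded their control level at the low dose (median log2 ratio 0.49). Of these, fga, fgb and apobb.1 averaged 1.04, 1.01 and 1.25 CPM and were highest at the low dose. They passed the filter through that library, so the count of 7 is in part set by the filter. Over all 10 liver markers, without the filter, the median was 0.42. The 10 summed to 119 CPM at the low dose, of which cp alone held 100 CPM, against 98.5 CPM in the control. Whether the liver markers bear on apoea and apoa1a was not tested.

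Of the cell type markers, the summed level of those of radial glia and astroglia had the same order of libraries as dhcr7, while their median did not. These 10 markers summed to 3572 CPM in the control, 2605 CPM at the low dose, 2859 CPM at the middle dose and 3206 CPM at the high dose, with no marker at 0. Their median log2 ratio was -0.34 at the low dose, -0.36 at the middle dose and -0.12 at the high dose, and 9 of 10, 9 of 10 and 7 of 10 were below the control. By the 1.5-fold rule 2 of the 10 were lower at the low dose and 1 at the middle dose, where 5.61% and 7.72% of all genes were. At the high dose 2 of the 10 were higher by the rule and 0 lower, where 7.26% and 6.95% of all genes were. The oligodendrocyte and myelin markers did not follow that order, with medians of 0.06, 0.08 and -0.12 at the rising doses. Their sum was 17180 CPM at the low dose, against 11260 CPM in the control. Most of it came from mbpa alone, with 14800 CPM at the low dose and 9045 CPM in the control. Microglia and macrophage markers were above the control, with medians of 0.27, 0.42 and 0.45 at the rising doses and 8 of 9, 8 of 9 and 7 of 9 above it. Of these, csf1rb averaged 1.03 CPM and passed the filter through the high dose, where its ratio is the median. Over all 10 markers, without the filter, the medians were 0.33, 0.43 and 0.46. The markers summed to 194 CPM in the control, 264 CPM at the low dose, 269 CPM at the middle dose and 231 CPM at the high dose. Most of each sum came from apoc1, with 139 CPM in the control and 189 CPM at the middle dose. Blood markers had medians of -0.18, -0.20 and -0.65. At the high dose 8 of 8 were below the control and 5 of 8 lower by the rule, where 6.95% of all genes were. Egg coat and oocyte markers also moved with the control library, as given above. The part of any of these in the lower dhcr7, srebf2 and insig1 values was not tested.

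The genes whose pattern over the 4 libraries was most like the mean of the 8 genes were ntrk3b, vac14, impdh1a, sae1 and sh3rf1, taken from 10129 genes that averaged 5 CPM or more and had an informative symbol. Their root-mean-square difference from that mean, in log2 units after centring, was between 0.01 for ntrk3b and 0.02 for sh3rf1. Of the described genes, cyp51 was nearest to the mean at 0.04 and dhcr7 farthest at 0.27. With 4 libraries many genes share a profile, and nothing follows from it about the genes named.

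In the authors' deposited table, dhcr7 alone of the 9 genes was marked as changed at the low dose, with a log2 fold change of -1.06, where 3.96% of all genes in the authors' deposited table were marked. At the middle and high doses 0 of the 9 were marked in the authors' deposited table, where 4.28% and 4.29% of all genes were. These shares are over all 32520 genes, of which 7627 had no count in any library, while each of the 9 had counts.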

How the data were processed

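Brain libraries were made with a stranded poly(A) kit and read as 151 bp paired ends, per the labels' protocols. The submitters' processing notes name RSEM 1.3.1, STAR 2.7.1a and cutadapt 2.8, and the genome build GRCz11. A single table was deposited by the authors, with an estimated count (expected count), an RPKM and a TPM value per gene and library, per the file headers. The counts are whole numbers, and 141 of them are 0 beside an RPKM above 0. The table also holds the authors' log2 fold changes, p-values and q-values, per the file headers, and the test behind them is not given in the sources used here.

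Genes that averaged 1 CPM or more over the libraries were kept, with CPM for this filter taken on library totals without TMM scaling. TMM factors (edgeR 4.0.16, R 4.3.3) were computed on the genes kept. The CPM values given are TMM-scaled, so near 1 CPM they can differ from those the filter used. Ratios are log2(CPM + 0.5), a scale that understates changes of low genes, and folds are ratios of CPM without the addition. Intervals are exact: Clopper-Pearson on the sum of both counts for a ratio, Poisson for a level. They treat estimated counts as counts and cover counting error only. Where a gene is past a rule, its ratio is at least 1.5-fold or 2-fold on the log2(CPM + 0.5) scale and its interval excludes 1. Figures came from matplotlib 3.10.9 and intervals from scipy 1.17.1, under Python 3.11.15 with pandas 2.3.3 and numpy 2.4.6. The calls were tested on simulated counts that held counting error only, so that test cannot speak for spread between fish or libraries. Besides the 9 genes and their paralogs, genes named from a list are those past 2-fold or among the 2 highest and 2 lowest at a dose. Of the genes named, tm7sf2 was chosen after its values were seen. The mean profile leaves out ldlra, which failed the filter. The genes and lists were chosen with earlier results of these data known. A planned search of promoter sequences was not run. An enzyme gene of the pathway is not reported here and is left out of the list counts and sums.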

Additional observations from a re-analysis of the deposited data

How the results depend on the processing

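The values were recomputed under 10 planned settings: DESeq2 1.42.0 size factors, library totals, a filter of 1 count or of a mean of 5 CPM, pseudocounts of 0.1 and 2 CPM, the authors' TPM, leaving out mitochondrial genes or egg coat and oocyte genes, and thinning to the smallest library. The count of genes past 2-fold lower at 0.01 mg/L, 0 as reported, became 1 (dhcr7) with library totals, with a filter of 1 count, with a pseudocount of 0.1 and without mitochondrial genes, since its log2 ratio ranged from -1.12 to -0.87 over the settings. The counts of described genes past 1.5-fold, each 0 or 1, were unchanged in all settings. The median of the 8 genes ranged from -0.43 to -0.21 at 0.01 mg/L, from -0.18 to -0.09 at 0.1 mg/L and from -0.13 to -0.03 at 1.0 mg/L. At 0.01 mg/L library totals moved the median of all genes to -0.12 and the authors' TPM moved it to -0.19. With the authors' TPM at that dose the median of efflux, carrier and turnover genes came to -0.12 and that of fatty acid targets to -0.34, and insig1 and srebf2 came to -0.56 and -0.39, beyond their counting intervals. No paired analysis was possible because each group holds 1 library, and for the same reason no library could be left out. Low counts leave wide intervals for sqlea, lss, fdft1, ldlra, sqleb and insig2.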
